A study of Homo sapiens with 6 samples.

Results

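The genes described here are the replication-dependent histone genes of CCD18Co, a human fibroblast line from colon. They were taken as the protein-coding genes whose symbols match the family names H2AC, H2BC, H3C and H4C followed by a number, or H1-1 to H1-6. This rule found 66 of the 60663 genes counted, with 6 genes for the linker histone H1, 16 for H2A, 17 for H2B, 13 for H3 and 14 for H4. The cells were transfected with siRNAs for 6 h by lipofection and collected 48 h after transfection. The siLTBP2 group received siRNAs against *LTBP2*, a secreted protein of matrix microfibrils, and the siNT group received siRNAs with no target. There were 3 libraries of each group, numbered 1 to 3, made from total RNA with a stranded kit that removes ribosomal RNA. All 6 libraries are from 1 cell line, no untransfected cells were analysed here, and the labels do not say whether the numbered libraries came from separate cultures, so p-values measure only the spread between these libraries.

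Replication-dependent histone genes supply the core histones H2A, H2B, H3 and H4, around which DNA is wound, and the linker histone H1, which binds where DNA enters and leaves the nucleosome. They are transcribed mainly in S phase, when new chromatin needs histones, from clustered gene copies that encode almost the same proteins. Their mRNAs have no introns and usually end in a short stem-loop in place of a poly(A) tail. The stem-loop binding protein SLBP holds this stem-loop, the U7 small nuclear RNA guides the cut behind it, and the mRNAs are degraded when DNA synthesis stops. Libraries of total RNA keep such transcripts, whereas selection on poly(A) loses most of them.

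The stem-loop is shown first because all of the genes carry it. It was searched in the 150 bases after each stop codon, in the GRCh38 transcripts of GENCODE 44. The search took a stem of 6 paired bases that starts with GG and ends with CC around a loop of 4 bases. The loop had to read TNTN, with N for any base, and G with T was counted as paired. All 66 genes held a fully paired stem-loop, starting between 23 and 68 bases after the stop codon. Among all 19924 canonical coding transcripts, 91 held it, which leaves 25 of the 19858 that are no member. The 16 bases of stem and loop are in capitals below, with 5 bases on each side. They are shown for some of the genes called higher, for genes of H1, H3 and H4, and for *H2AX*, a histone variant gene outside the rule.

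H2BC9 (chr6:26252050-26252075, plus strand): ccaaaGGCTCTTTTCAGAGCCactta

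H2BC15 (chr6:27839085-27839110, plus strand): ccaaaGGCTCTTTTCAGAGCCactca

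H2BC4 (chr6:26123467-26123492, minus strand): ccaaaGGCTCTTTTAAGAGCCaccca

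H2AC8 (chr6:26217412-26217437, plus strand): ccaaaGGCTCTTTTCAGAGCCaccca

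H1-5 (chr6:27866792-27866817, minus strand): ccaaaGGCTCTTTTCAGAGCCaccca

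H3C2 (chr6:26031592-26031617, minus strand): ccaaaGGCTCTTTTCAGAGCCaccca

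H4C3 (chr6:26104312-26104337, plus strand): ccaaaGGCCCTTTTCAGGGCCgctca

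H4C9 (chr6:27139649-27139674, plus strand): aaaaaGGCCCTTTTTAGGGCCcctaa

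H2AX (chr11:119094893-119094918, minus strand): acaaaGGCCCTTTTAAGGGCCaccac

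The most common stem-loop, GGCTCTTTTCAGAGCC, was found in 38 genes, 4 of H1, 12 of H2A, 11 of H2B and 11 of H3. A second form, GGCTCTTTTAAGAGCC, was found in 9 genes, 5 of them H2B genes. All 14 H4 genes had a stem that opens with GGCCC, in 9 genes as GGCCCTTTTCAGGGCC and in 4 as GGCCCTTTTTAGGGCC. Of 12 replication-independent histone genes searched, only *H2AX* held a stem-loop. The canonical transcript of every member had 1 exon, and their lengths lay between 386 and 797 bases except for *H2BC21*, at 2224 bases. In 14 genes GENCODE 44 also lists a transcript that runs more than 100 bases past the stem-loop, among them *H2BC4*, *H2BC15* and *H2BC18*.

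The promoters were read from the RefSeq promoter table for GRCh38 (250 bases before to 50 after each start), which held 61 of the 66 genes. The others are *H4C3*, *H3C12*, *H2AC12*, *H3C11* and *H4C1*. The octamer ATTTGCAT, a binding word of Oct-1, was found on either strand in 14 of 17 H2B promoters and 11 of 15 H2A promoters. It was found in 0 of 6 H1, 0 of 11 H3 and 0 of 12 H4 promoters, and in 1.77% of all 35116 promoters of the table. Many H2A and H2B genes stand head to head and share 1 octamer, so the 25 genes hold 17 distinct sites. The 30 bases around 4 of these sites are shown with the octamer in capitals, because the genes they belong to are described below.

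H2BC9 (chr6:26251554-26251583, plus strand): attaagcacctATTTGCATaaaagacctac

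H2BC4 and H2AC6 (chr6:26124031-26124060, minus strand): tttcatacctcATTTGCATagctctgccca

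H2BC7 and H2AC7 (chr6:26199394-26199423, plus strand): agaatcacctaATTTGCATaccacagggca

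H2BC18 (chr1:149812401-149812430, minus strand): tgcgagtcttcATTTGCATacgggctctat

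The word CCAAT, which NF-Y binds, was in all 6 H1, 15 H2A, 17 H2B and 11 H3 promoters of the table and in 3 of 12 H4 promoters, against 34.6% of all promoters. The word GGTCCG, part of the H4 element called site II, was in 11 of 12 H4 promoters, in 0 of 6 H1, 1 of 15 H2A, 1 of 17 H2B and 1 of 11 H3 promoters, and in 11.3% of all promoters. The word TATAAA was in 41 of the 61 promoters and in 11.5% of all. Each word was searched on both strands, and a match describes the letters only.

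Between 44663424 and 53576899 reads were counted per library. *LTBP2*, the targeted gene, had 25.0, 23.1 and 21.2 CPM (reads scaled to a common library size, with TMM factors) in siNT and 6.49, 8.61 and 6.00 CPM in siLTBP2 (log2 fold change -1.72, standard error 0.15, edgeR adjusted p = 6.6e-05). All 8 fibroblast markers examined were detected, with *VIM* between 4524 and 6420 CPM, and *PDGFRB* was the only one called, at a log2 fold change of -0.60 (edgeR adjusted p = 0.0025). The 6 epithelial markers summed to 0.218 CPM in each group, with *KRT20* and *MUC2* at 0 in every library. The 6 immune markers summed to 0.285 CPM in siNT and 0.467 CPM in siLTBP2. Of 6 endothelial markers, *TEK* was at 59.1 to 81.5 CPM and the others were under 2 CPM.

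The histone genes took a visible share of the RNA. In siNT, 0.356%, 0.542% and 0.522% of all counted reads fell on the 66 genes, and in siLTBP2 0.511%, 0.588% and 0.614%. Their summed level was 3616, 5171 and 5191 CPM in siNT and 5236, 5927 and 6194 CPM in siLTBP2. The groups do not overlap, but the lowest siLTBP2 library lies just above the highest siNT library. The first library of each group was its lowest, and siNT 1 was the lowest of all. The mean sum was 4659 ± 904 CPM (SD, n = 3) in siNT and 5786 ± 495 CPM (SD, n = 3) in siLTBP2, a ratio of 1.24. Without siNT 1 the ratio was 1.12. In bulk RNA, a larger share of cells in S phase and more histone mRNA per cell cannot be told apart.

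**Figure D1:**
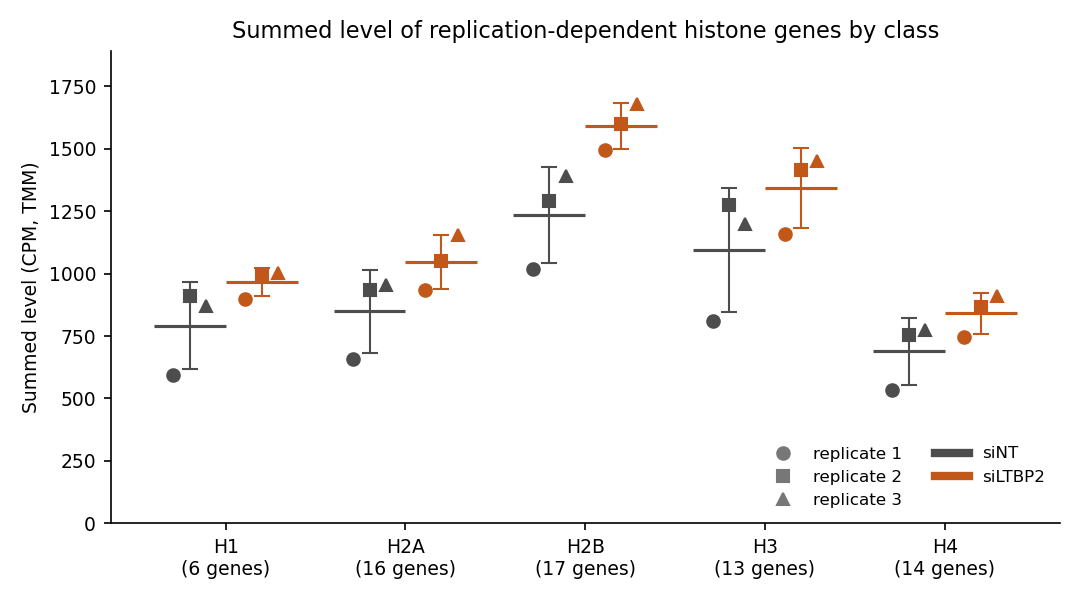
Summed level in CPM (TMM-scaled library sizes) of the replication-dependent histone genes of each class, in each library. Symbols mark replicates 1, 2 and 3, horizontal lines the group mean and bars ± 1 SD (n = 3). In all 5 classes the siNT 1 library is lowest, and the siLTBP2 mean is above the siNT mean by a ratio of 1.22 to 1.29.

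The mean of all 5 classes was higher in siLTBP2, but only the H2B sums did not overlap between the groups. The summed H2B level was 1235 ± 193 CPM (SD, n = 3) in siNT and reached 1591 ± 91.8 CPM (SD, n = 3) in siLTBP2, a ratio of 1.29. The ratio was 1.22 for H1, 1.23 for H2A, 1.23 for H3 and 1.22 for H4. In these 4 classes the highest siNT library was above the lowest siLTBP2 library, at 912 against 900 CPM for H1, 955 against 935 CPM for H2A, 1276 against 1159 CPM for H3 and 774 against 747 CPM for H4. Without siNT 1 the ratio was 1.08 for H1, 1.11 for H2A, 1.18 for H2B, 1.08 for H3 and 1.10 for H4. The shares of the classes differed by less than 1 percentage point between the groups. H2B took 26.7% ± 1.6 of the summed CPM in siNT and 27.6% ± 0.896 in siLTBP2, and H4 took 14.8% ± 0.153 and 14.5% ± 0.208 (SD, n = 3). Per kilobase of canonical transcript, the class levels in siNT summed to 2369 CPM per kb for H2B, 2209 for H3, 1716 for H4, 1712 for H2A and 1027 for H1.

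A single library carried much of the spread. Of the 61 genes with enough reads to be tested, siNT 1 held the lowest level of all 6 libraries in 60, and siLTBP2 3 held the highest in 39. Relative to each gene's mean in siNT, the median gene stood at 0.76, 1.10 and 1.12 in the siNT libraries and at 1.10, 1.28 and 1.34 in the siLTBP2 libraries. In siLTBP2, replicate 1 was the lowest in 51 genes. *RN7SL1*, an RNA of the signal recognition particle that also lacks a poly(A) tail, was likewise lowest in replicate 1 of both groups, at 6102, 11686 and 9922 CPM in siNT and 5404, 9092 and 11102 CPM in siLTBP2. Its part in the result was not tested.

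Gene by gene, every measured histone gene leaned the same way and few passed the test, which did not use the replicate number. The log2 fold change was above 0 in 61 of 61 genes, where 49.3% of all 16920 genes tested were above 0. The median was 0.32 over the members and -0.01 over all genes tested, and the members ranged from 0.0023 (*H4C9*) to 1.28 (*H2AC17*). All members were measured in the same 6 libraries, so their common direction does not count as 61 separate observations. At an adjusted p below 0.05, 8 genes were called higher, which is to be read against 9.76% of all genes. None was lower by edgeR's quasi-likelihood test (9.51% of all genes), 0 were lower at an unadjusted p below 0.05, and DESeq2 also called 0. At an unadjusted p below 0.05, 26 of the 61 were higher, against 16.3% of all genes.

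**Figure D2:**
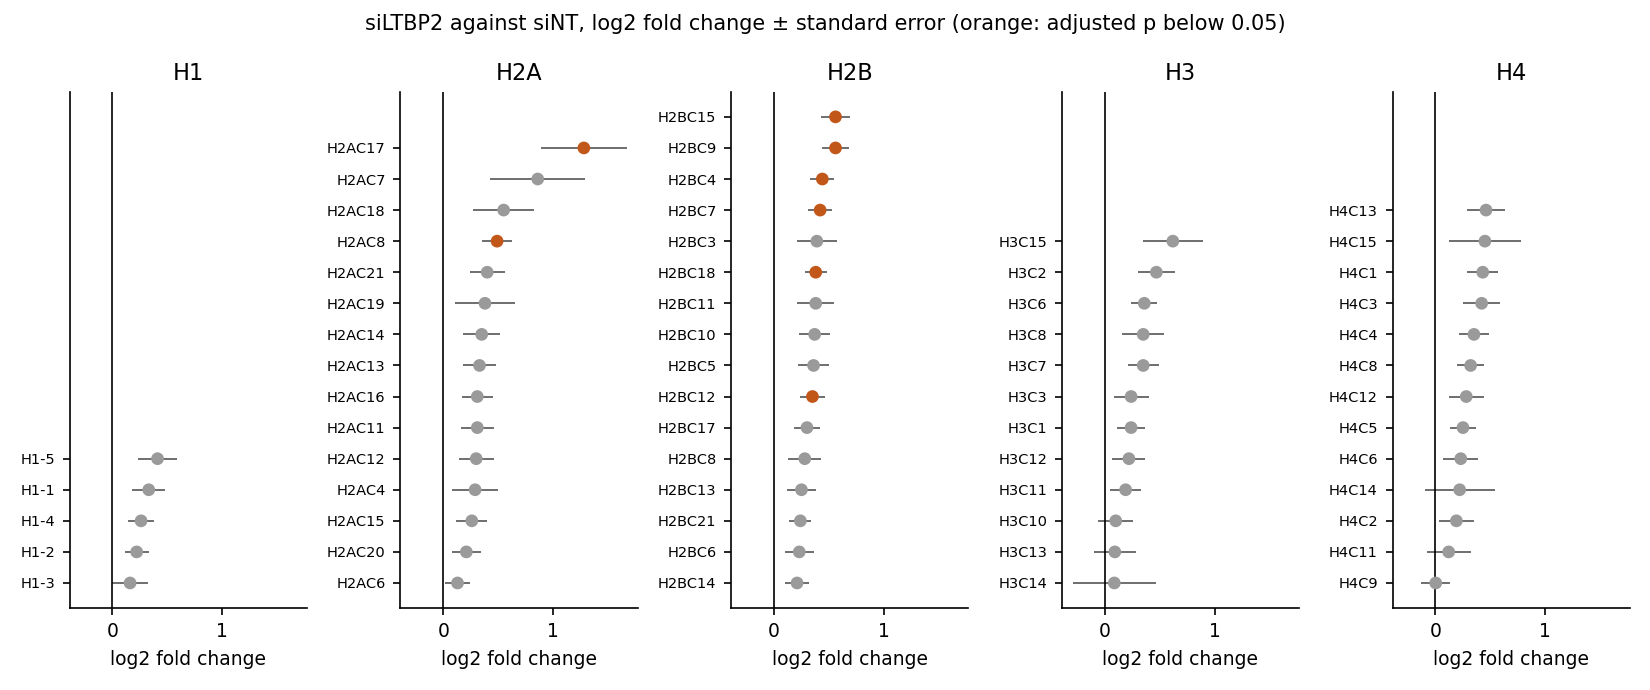
Log2 fold change of siLTBP2 against siNT for the 61 tested genes in the 5 classes, with bars of ± 1 standard error from edgeR's quasi-likelihood test. Orange points have an adjusted p below 0.05: 6 are H2B genes and 2 are H2A genes, and all 61 points lie above 0, *H4C9* by 0.0023 only.

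The count of called genes moved with the libraries and with the fit. The likelihood ratio test of edgeR and DESeq2 called 11 each, where 11.4% and 10.9% of all genes were higher. No gene reached an adjusted p below 0.01 with a fold change above 2, a mark that 2.57% of all genes reached by the same test, and DESeq2 and edgeR's likelihood ratio test gave 0 as well. Every siLTBP2 library lay above every siNT library in 17 of the 61 genes, against 18.7% of all genes. Without siNT 1, the fold change was above 0 in 55 of 61 genes with a median of 0.15, and 2 genes were called. Of all genes tested, 6.45% were higher in this fit. Without siNT 2, siNT 3, siLTBP2 1, siLTBP2 2 or siLTBP2 3, the test called 3, 11, 4, 2 and 5 genes. The shares of all genes called higher in these fits were 6.93%, 7.62%, 7.1%, 5.97% and 8.31%. With no low-count filter it called 28 of 66 members, where 5.61% of all genes were higher. A fit that also models the replicate number as a block called 48 of 61, genes of H1, H3 and H4 among them. That fit called 18.4% of all genes higher, and the replicate numbers were not taken as pairs here.

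H2B held most of the called genes. Of its 16 tested genes, 6 were higher, against 9.76% of all genes tested, and the median log2 fold change was 0.37. *H2BC9* (ENSG00000275713, chr6:26251614-26252075, plus strand), with the octamer and stem-loop printed above, had 48.2, 62.5 and 68.3 CPM in siNT and 84.1, 88.2 and 91.6 CPM in siLTBP2. The groups do not overlap and the lowest siLTBP2 library is well above the highest siNT library. Its log2 fold change was 0.56 (standard error 0.12, edgeR adjusted p = 0.0085), and it stayed between 0.42 and 0.67 with each library left out in turn.

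*H2BC15* (ENSG00000233822, chr6:27838545-27855709, plus strand) had 39.1, 47.3 and 55.5 CPM in siNT and 65.6, 67.1 and 77.1 CPM in siLTBP2. It too was clear of overlap, with a log2 fold change of 0.56 (standard error 0.13, edgeR adjusted p = 0.011). It was called, like *H2BC9*, without any 1 of the 6 libraries, and it is the only called gene with no ATTTGCAT in its promoter window. For each of the 8 called genes, an exact permutation test of the 3 libraries against 3 gave a two-sided p of 0.1, the smallest this design allows.

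The other called H2B genes changed by less. *H2BC4* had 126.9, 155 and 174 CPM in siNT and 201, 207 and 212 CPM in siLTBP2 (log2 fold change 0.44, edgeR adjusted p = 0.018). *H2BC7* had 51.5, 66.7 and 69.7 CPM in siNT and 82.9, 84.0 and 84.0 CPM in siLTBP2 (log2 fold change 0.42, edgeR adjusted p = 0.024). In both genes the siLTBP2 libraries sit close together and the siNT libraries are spread out, with siNT 1 lowest. Each was called in 3 of the 6 fits that leave out a library.

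*H2BC18*, in the chromosome 1 cluster, had 89.9, 106 and 118 CPM in siNT and 137, 138 and 133 CPM in siLTBP2 (log2 fold change 0.38, edgeR adjusted p = 0.024). *H2BC12*, which had the highest level per kilobase of all members in siNT (368.8 CPM per kb), had 157, 189 and 202 CPM in siNT and 216, 230.3 and 252 CPM in siLTBP2 (log2 fold change 0.35, edgeR adjusted p = 0.045). *H2BC12* passed the test closely. Without 1 of the libraries, *H2BC18* was called in 2 of 6 fits and *H2BC12* in 1 of 6. The gene of *H2BC4* overlaps *HFE* and that of *H2BC18* overlaps *FCGR1A* on the opposite strand, and the sources used here do not say whether the counting used strand. Of the 100-base windows of *H2BC18* and *H2BC12*, 43.5% and 22.5% occur also in another histone transcript.

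**Figure D3:**
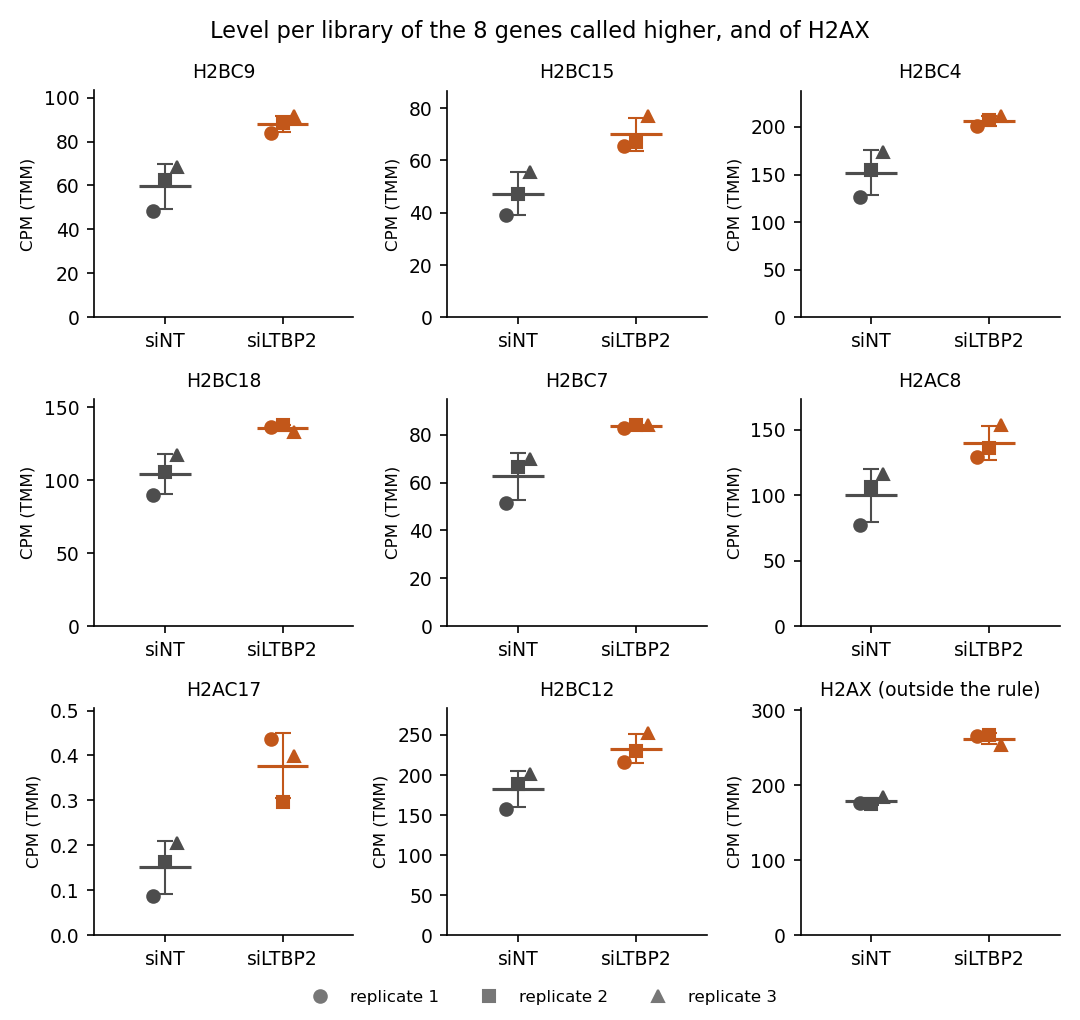
Level in CPM (TMM-scaled library sizes) in each library of the 8 genes called higher and of *H2AX*, with symbols for replicates 1, 2 and 3, lines for the group mean and bars for ± 1 SD (n = 3). In every panel the siLTBP2 points lie above the siNT points, and in the 8 called genes siNT 1 is the lowest point.

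The remaining 10 tested H2B genes had fold changes above 0 and did not pass. *H2BC21*, the gene with the longest transcript, had 108, 125 and 143 CPM in siNT and 147, 145 and 153 CPM in siLTBP2. Its groups do not overlap, and its log2 fold change was 0.24 (edgeR adjusted p = 0.14). The smallest change of the class was 0.21, in *H2BC14*.

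Among the 15 tested H2A genes 2 were called, against 9.76% of all genes tested called higher. *H2AC8* had 77.4, 106 and 116 CPM in siNT and 129, 136 and 154 CPM in siLTBP2 (log2 fold change 0.49, standard error 0.14, edgeR adjusted p = 0.032). The groups do not overlap, and the gene was called in 2 of the 6 fits that leave out a library. *H2AC17* rests on few reads, with 4, 8 and 11 reads in siNT and 19, 14 and 21 reads in siLTBP2 (log2 fold change 1.28, standard error 0.39, edgeR adjusted p = 0.043). It was called in 0 of these 6 fits, and its exons overlap a transcript of *H3C12* on the same strand, so that its reads are uncertain.

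The most abundant H2A genes moved less. *H2AC11* had 121, 166 and 177 CPM in siNT and 161, 196 and 217 CPM in siLTBP2 (log2 fold change 0.31, edgeR adjusted p = 0.18). *H2AC6*, which shares its octamer with *H2BC4*, had 99.3, 125 and 132 CPM in siNT and 121, 128 and 142 CPM in siLTBP2 (log2 fold change 0.13, edgeR adjusted p = 0.48). In both genes the groups overlap. *H2AC7* (log2 fold change 0.86, edgeR adjusted p = 0.2) was under 1 CPM in every library.

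None of the 5 tested linker histone genes passed edgeR's quasi-likelihood test, and none was called by its likelihood ratio test or DESeq2. Of these, 1 had an unadjusted p below 0.05, and their log2 fold changes ran from 0.16 to 0.41. *H1-5* had 186, 338 and 303 CPM in siNT and 329, 373 and 393 CPM in siLTBP2 (log2 fold change 0.41, edgeR adjusted p = 0.15). *H1-2* had 186, 247 and 241 CPM in siNT and 254, 259 and 273 CPM in siLTBP2 (log2 fold change 0.22, edgeR adjusted p = 0.2). *H1-3* had 104, 170.1 and 160.1 CPM in siNT and 147, 175 and 162 CPM in siLTBP2, and its log2 fold change of 0.16 turned to -0.039 without siNT 1. In *H1-5* and *H1-3* the groups overlap, and in *H1-2* they do not.

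None of the 12 tested H3 genes passed edgeR's quasi-likelihood test, with 4 at an unadjusted p below 0.05. The H3 members encode only 2 different proteins. *H3C2* had 131, 220.2 and 201 CPM in siNT and 219.8, 255 and 289.7 CPM in siLTBP2 (log2 fold change 0.47, standard error 0.17, edgeR adjusted p = 0.085). It passed with DESeq2 (adjusted p = 0.031) and with edgeR's likelihood ratio test (adjusted p = 0.043). So did *H3C6*, named after its values were seen, with 70.0, 94.9 and 90.2 CPM in siNT and 100.2, 120.3 and 107 CPM in siLTBP2 and no overlap between the groups (log2 fold change 0.36, edgeR quasi-likelihood adjusted p = 0.06). *H3C3* had 133, 206 and 198 CPM in siNT and 182, 217 and 235 CPM in siLTBP2 (log2 fold change 0.24). *H3C8* had 111, 194 and 179 CPM in siNT and 166, 219 and 234 CPM in siLTBP2 (log2 fold change 0.35). *H3C2*, *H3C3* and *H3C8* overlap between the groups, with siNT 2 above the lowest siLTBP2 library.

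Some H3 genes stood almost level. *H3C10* had 90.7, 147 and 134 CPM in siNT and 116, 147 and 134 CPM in siLTBP2, so that replicates 2 and 3 were alike in both groups (log2 fold change 0.10, standard error 0.16). In *H3C13* the difference was 0.092 on the log2 scale (standard error 0.19). Without siNT 1 both turned below 0, to -0.09 and -0.13.

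None of the 13 tested H4 genes passed edgeR's quasi-likelihood test, with 5 at an unadjusted p below 0.05. *H4C1* (log2 fold change 0.43) was called by edgeR's likelihood ratio test and by DESeq2, and *H4C13* (0.46) by DESeq2 only, both named after their values were seen. In both genes the groups do not overlap. The 14 H4 genes encode only 2 different proteins. *H4C8* had 99.6, 118 and 135 CPM in siNT and 131, 152 and 157 CPM in siLTBP2 (log2 fold change 0.32, edgeR adjusted p = 0.087). *H4C6* had 78.8, 124 and 119 CPM in siNT and 111, 139 and 127 CPM in siLTBP2 (log2 fold change 0.23), and *H4C2* had 71.3, 103 and 104 CPM in siNT and 85.0, 109.5 and 122 CPM in siLTBP2 (log2 fold change 0.19). In *H4C8*, *H4C6* and *H4C2* the groups overlap. *H4C9* was the least changed of all members, with 36.2, 50.7 and 48.8 CPM in siNT and 39.5, 47.8 and 48.7 CPM in siLTBP2 (log2 fold change 0.0023, standard error 0.13).

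Some copies are too alike to be counted apart. Over 90% of the 100-base windows of *H4C14*, *H4C15*, *H3C14*, *H3C15*, *H2AC18*, *H2AC19*, *H4C11* and *H4C12* occur also in another histone transcript, so their reads may be split or lost between copies. These 8 genes together summed to 21.0 CPM in siNT and 25.7 CPM in siLTBP2, and none passed edgeR's quasi-likelihood test, 1 having an unadjusted p below 0.05, or its likelihood ratio test or DESeq2. Their log2 fold changes were 0.22 in *H4C14*, 0.45 in *H4C15*, 0.087 in *H3C14*, 0.62 in *H3C15*, 0.55 in *H2AC18*, 0.38 in *H2AC19*, 0.12 in *H4C11* and 0.28 in *H4C12*. The standard errors lay between 0.16 and 0.38. In *H2AC13* and *H2AC14*, 58.8% and 61.8% of the windows are shared. Within a pair such as *H3C14* and *H3C15* the values are therefore uncertain.

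Not every histone gene was expressed. *H1-6* and the *H2AC1* and *H2BC1* pair, known as testis histones, had 0 to 4 reads in a library and were not tested, nor were *H3C4* and *H4C7*. *H3C4* and *H4C7* had 0 reads in every siNT library. Of the other genes, 16 had a mean in siNT above 100 CPM, 34 between 10 and 100 CPM, and 11 under 10 CPM.

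The H2A and H2B genes of a shared promoter region were set side by side. Of 11 pairs of H2A and H2B genes that start less than 400 bases apart and run away from each other, 10 had both genes tested. The H2B gene had the larger fold change in 5 of the 10. The log2 fold changes were nearly equal in *H2BC21* and *H2AC20* (0.24 and 0.21), *H2BC12* and *H2AC12* (0.35 and 0.30), *H2BC11* and *H2AC11* (0.38 and 0.31) and *H2BC13* and *H2AC13* (0.25 and 0.33), with standard errors of 0.10 to 0.17. Other pairs stood further apart. The widest gaps were in *H2AC17* and *H2BC17* (1.28 and 0.30, standard errors 0.39 and 0.12) and in *H2AC7* and *H2BC7* (0.86 and 0.42, standard errors 0.43 and 0.11). In both of these the H2A gene had few reads. *H2BC4* and *H2AC6* start 246 bases apart and had log2 fold changes of 0.44 and 0.13 (standard errors 0.11 and 0.11). *H2BC15* and *H2AC15*, 194 bases apart, had 0.56 and 0.26 (standard errors 0.13 and 0.14), while *H2AC8* and *H2BC8*, 233 bases apart, had 0.49 and 0.28 (standard errors 0.14 and 0.15). No test of the difference within a pair was made.

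Split by what the promoters hold, 7 of 23 tested genes with the octamer were called higher, against 1 of 33 tested genes without it. Over all genes tested, 9.76% were called higher. The octamer is confined to H2A and H2B genes here, and all H1, H3 and H4 genes are on the side without it. The split is thus in large part one by class. Some H2A and H2B promoters lack the octamer (it was in 11 of 15 and 14 of 17), but no comparison within these classes was made. The median log2 fold change was 0.35 with the octamer and 0.28 without it. By position, 7 of 50 tested genes on chromosome 6 and 1 of 11 on chromosome 1 were called, with medians of 0.32 and 0.38. Among the 13 tested genes with an annotated transcript past the stem-loop, 3 were called (median 0.36), and among the other 48 tested genes 5 were called (median 0.31). The counts by position and by transcript are to be read against the same 9.76%.

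Of the 12 replication-independent histone genes, most are transcribed throughout the cell cycle and polyadenylated. Of these 12, 11 were tested, and 1 rose and 1 fell, against 9.76% higher and 9.51% lower over all genes tested. The gene that rose, *H2AX*, carries the stem-loop printed above. *H2AX*, whose protein is phosphorylated at DNA breaks, had 176, 175 and 184 CPM in siNT and 266, 266 and 253 CPM in siLTBP2 (log2 fold change 0.55, standard error 0.079, edgeR adjusted p = 0.00099). Its libraries agreed closely within each group, and siNT 1 was not set apart from siNT 2. *MACROH2A1*, a macroH2A variant, had 177, 184 and 184 CPM in siNT and 135, 138 and 128 CPM in siLTBP2 (log2 fold change -0.44, edgeR adjusted p = 0.0032). Both were called without any 1 of the 6 libraries.

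The H3.3 genes did not pass. *H3-3B* had 328, 358 and 367 CPM in siNT and 407, 429 and 434 CPM in siLTBP2 (log2 fold change 0.27, edgeR adjusted p = 0.055, and 0.026 with DESeq2). *H3-3A* had 55.7, 64.1 and 60.1 CPM in siNT and 49.0, 53.2 and 54.2 CPM in siLTBP2 (log2 fold change -0.20, edgeR adjusted p = 0.15). The groups do not overlap in either gene. The median over the list was 0.02.

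Of 22 genes for histone mRNA synthesis, 3′ end processing and decay, 6 were higher and none was lower (0 at an unadjusted p below 0.05), against 9.76% higher and 9.51% lower over all genes tested. Their median log2 fold change was 0.14. *NPAT*, the activator of histone transcription at the histone locus body, had 37.4, 40.5 and 40.8 CPM in siNT and 46.2, 50.9 and 50.7 CPM in siLTBP2 (log2 fold change 0.32, edgeR adjusted p = 0.028). *CPSF3*, the nuclease that cuts histone pre-mRNA, had a log2 fold change of 0.31 (edgeR adjusted p = 0.02). *CSTF2*, a cleavage factor, had 0.38 (adjusted p = 0.048), and *SRRT*, a partner of the cap-binding complex, had 0.29 (adjusted p = 0.047).

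Factors of histone mRNA decay were among those called. *TUT7*, which adds uridines to the ends of such mRNAs, had 50.8, 44.7 and 49.0 CPM in siNT and 69.0, 62.9 and 67.2 CPM in siLTBP2 (log2 fold change 0.46, edgeR adjusted p = 0.0045). *ERI1*, an exonuclease that trims the stem-loop, had a log2 fold change of 0.34 (edgeR adjusted p = 0.037). *SLBP* itself had 70.9, 71.2 and 84.3 CPM in siNT and 76.3, 81.7 and 91.8 CPM in siLTBP2, with overlapping groups (log2 fold change 0.14, edgeR adjusted p = 0.38). Of the 6 called genes, *TUT7* alone passed without any 1 of the 6 libraries.

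Histone chaperones moved in both directions. Of 23 genes tested, 6 were higher and 1 was lower, against 9.76% higher and 9.51% lower over all genes tested. Their median log2 fold change was 0.18. *ASF1A* and *ASF1B* carry H3 and H4 to the assembly factors. *ASF1A* fell, with 65.0, 71.8 and 66.6 CPM in siNT and 42.0, 47.3 and 48.1 CPM in siLTBP2 (log2 fold change -0.57, edgeR adjusted p = 0.0017). *ASF1B* rose, with 35.3, 41.5 and 41.3 CPM in siNT and 46.9, 54.2 and 49.9 CPM in siLTBP2 (log2 fold change 0.36, edgeR adjusted p = 0.029).

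The other chaperones called were all higher. *HJURP*, the chaperone of the centromeric H3 variant, had a log2 fold change of 0.51 (edgeR adjusted p = 0.011), *RBBP7* of 0.36 (adjusted p = 0.017), and *DAXX*, a chaperone of H3.3, of 0.31 (adjusted p = 0.025). *MCM2*, a helicase subunit that also holds H3 and H4 and is counted among the S phase genes too, had 0.34 (adjusted p = 0.034). The remaining called gene was *SSRP1*, a subunit of the FACT complex, with 0.27 (adjusted p = 0.049), named after its value was seen.

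S phase genes were compared because histone genes are transcribed in that phase. The list of 52 holds genes of DNA replication and its regulation, and also *SLBP*, which is counted among the histone mRNA genes too. Of these, 15 were higher and 1 was lower, against 9.76% higher and 9.51% lower over all genes tested. Their median log2 fold change was 0.22. *GINS1* (log2 fold change 0.65, edgeR adjusted p = 0.0031), *GINS4* (0.56, adjusted p = 0.0031) and *MCM7* (0.49, adjusted p = 0.0043) belong to the replicative helicase. *CDK2*, the kinase of S phase entry, had 0.63 (adjusted p = 0.0098), *DBF4*, the activator of the CDC7 kinase, 0.47 (adjusted p = 0.012) and *UHRF1* 0.48 (adjusted p = 0.012). The gene that fell, *E2F2*, had -0.64 (adjusted p = 0.016) and is named after its value was seen.

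The summed level of the S phase list was 3114, 3460 and 3706 CPM in siNT and 3789, 4132 and 4286 CPM in siLTBP2. Replicate 1 was the lowest of each group here too. The histone genes summed to 1.16, 1.49 and 1.40 times the S phase list in the siNT libraries and to 1.38, 1.43 and 1.45 times in the siLTBP2 libraries. Relative to this list, siNT 1 remains the lowest library, and siNT 2 is above all siLTBP2 libraries. The ratio was 1.35 ± 0.171 in siNT and 1.42 ± 0.0361 in siLTBP2 (SD, n = 3).

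**Figure D4:**
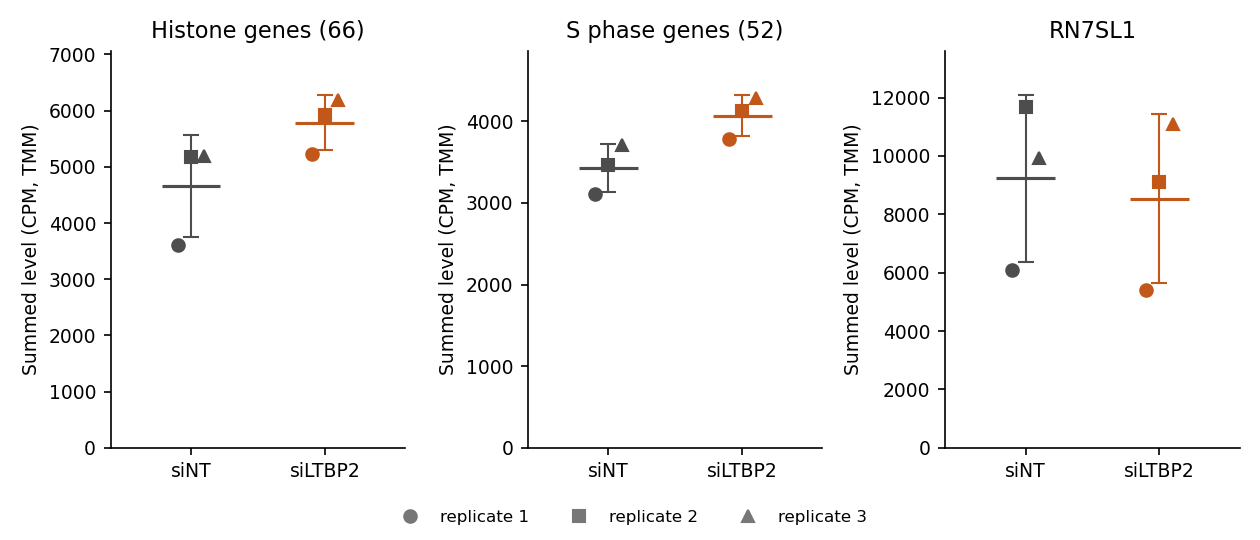
Level in CPM (TMM-scaled library sizes) in each library, summed over the 66 histone genes, summed over 52 S phase genes, and of *RN7SL1*, with symbols for replicates 1, 2 and 3, lines for the group mean and bars for ± 1 SD (n = 3). Replicate 1 is lowest in each group of each panel, and *RN7SL1* overlaps between the groups while both sums do not.

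Of 24 gene rows for other RNAs without a poly(A) tail, 10 had enough reads to be tested, and 0 passed edgeR's test, 0 at an unadjusted p below 0.05 and 0 with DESeq2. Their median log2 fold change was 0.04. Reads were at 0 in every library for 11 of the 24 rows, *RNU7-1* (the U7 RNA), *RN7SK*, *RMRP* and *RPPH1* among them, RNAs that cells use generally, so these rows say nothing of the level of the RNA.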

How the data were processed

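Ribosomal RNA depleted libraries of 6 CCD18Co samples were sequenced in pairs of reads. Per the labels, the authors used bcl2fastq, STAR 2.7.1a and HTSeq 0.11.2 with GRCh38. The deposited table holds raw counts per gene with no normalization, and the sources used here name neither the annotation release nor whether counting used strand. No column of other samples was used.

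The members and the gene lists were chosen with earlier results of these data known. Counts were analysed with edgeR 4.0.16 in R 4.3.3: filterByExpr, TMM and the quasi-likelihood test of siLTBP2 against siNT, two-sided, with Benjamini-Hochberg adjustment over 16920 genes. A standard error is the fold change over the root of its F statistic. Alternatives were the likelihood ratio test of edgeR, named in the study's methods, DESeq2 1.42.0, other scalings and filters, a replicate block and leaving out each library. Leaving out both libraries numbered 1 was added after the data were seen. Depth limits genes of few reads, such as *H2AC17*. Levels are CPM on TMM-scaled library sizes, and levels per length divide by the canonical transcript of GENCODE 44. All 66 members matched it, 2 of them by symbol.

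Members given with values were the 3 most abundant of each class, those with an adjusted p below 0.05, the 5 highest and 5 lowest fold changes and near-identical copies. Of each other list, up to 6 called genes with the smallest p were named, and *SLBP*, *NPAT*, *H3-3A*, *H3-3B* and *H2AX* always. A further gene of this rule is not reported here. No set test was run. No replicate pair agreed within sampling noise (chi-square over its degrees of freedom, 28.39 to 56.19). The test was tried on simulated data with 195 changed genes among 16675, of which it called 89.2% with 7.45% false calls. The share called at fold changes as small as those of the histone genes (median log2 fold change 0.32) was not tested.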

Additional observations from a re-analysis of the deposited data

How the results depend on the processing

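The count of 8 higher histone genes was the result that moved most. It was 4 with total counts as library sizes, 28 with no low-count filter and 2 with both libraries numbered 1 left out, and between 2 and 11 with 1 library left out. Of all genes, 8.19% were higher with total counts, 5.61% with no filter and 4.69% without both libraries numbered 1. With 1 library left out, 5.97% to 8.31% of all genes were higher. The other tests, scalings and filters gave 7 to 11, where 9.69% to 12.6% of all genes were higher. Counts of lower and of deregulated members were 0 in every fit. *H2BC9* and *H2BC15* were called higher in every fit. The cause of these shifts was not tested. The summed level kept a ratio between 1.12 and 1.32, and *LTBP2* a log2 fold change between -1.89 and -1.61, with 1 library left out.

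The replicate numbers were not taken as pairs, because no label says that a number marks a shared culture or day. The deviations of same-numbered libraries correlated by 0.3, 0.08 and 0.43, and those of libraries with different numbers by -0.39 to 0.1. Whether the numbers mark pairs is therefore not known, and the count of called members depends on it. In the fit with a replicate block, 48 members were higher, 5 replication-independent histone genes, 14 chaperones and 29 S phase genes passed, where that fit called 18.4% of all genes higher (9.76% without the block). Only the libraries numbered 1 and 3 correlated best with their own number in both groups.

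For the genes of histone mRNA synthesis and processing, 6 passed, but 2 with total counts, 3 with no filter, 1 without both libraries numbered 1 and 1 to 3 with 1 library left out. Of chaperones, 7 passed, but 2 without both libraries numbered 1 and 1 to 5 with 1 library left out. Of S phase genes, 16 passed, but 9 with total counts, 6 without both libraries numbered 1 and 6 to 17 with 1 library left out.

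The smallest fold changes changed sign. *H4C9* had a log2 fold change of -0.0046 with upper-quartile factors, -0.039 with total counts, -0.01 with no filter, -0.0007 with the filter of 1 CPM in 3 libraries and -0.045 without both libraries numbered 1, where *H3C13* had -0.033. With 1 library left out, the range was -0.14 to 0.094 in *H4C9*, -0.039 to 0.29 in *H1-3*, -0.09 to 0.24 in *H3C10*, -0.13 to 0.31 in *H3C13*, -0.20 to 0.60 in *H3C14*, -0.055 to 0.28 in *H4C11* and -0.042 to 0.55 in *H4C14*.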

Other observations

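Among histone genes, 5 more carry the stem-loop but other symbols in the deposited table, so that the rule did not take them. They were chosen after their values were seen. *H2AW*, which the reference table names *H2AC25*, had 7.40, 7.84 and 8.31 CPM in siNT and 4.84, 5.84 and 5.66 CPM in siLTBP2. It is an H2A gene on chromosome 1 that was lower in siLTBP2 (log2 fold change -0.53, edgeR adjusted p = 0.02), whereas all 61 tested members had fold changes above 0. It was called in 4 of the 6 fits that leave out 1 library, with a log2 fold change between -0.58 and -0.45. Its neighbour *H2BU1* (*H2BC26*) had 5.60, 7.21 and 7.83 CPM in siNT and 5.32, 7.91 and 5.96 CPM in siLTBP2 (log2 fold change -0.11, edgeR adjusted p = 0.74). *H4-16* (*H4C16*), on chromosome 12, had 20.8, 25.8 and 27.9 CPM in siNT and 28.2, 28.3 and 34.4 CPM in siLTBP2 (log2 fold change 0.29, edgeR adjusted p = 0.15). *H3-4* was at 0 reads in every library and *H3-2* had at most 4 reads in a library, so neither was tested.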
